A study of Mus musculus with 14 samples.

Results

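Pleiotrophin and midkine are the members of a small family of secreted, heparin-binding growth factors. They are described here with the receptor tyrosine phosphatase Ptprz1 and the heparan sulfate proteoglycan syndecan 3 (Sdc3), on every probe whose gene name in the scanner files was Ptn, Mdk, Ptprz1 or Sdc3. That rule gave 4 genes and 10 probes of the 27962 gene names and 41174 non-control probes of the array. Ptn has 1 probe, Mdk has 2, Ptprz1 has 4 and Sdc3 has 3. The set was chosen by the pregnant and virgin P5 ratios of Ptn, which is far lower in pregnant than in virgin cells of the population called P5, so that difference is described and not tested, for Ptn or for any other of the 4 genes.

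The study measured RNA of sorted mammary cells on 14 Agilent 2-colour arrays in 8 groups. Sorted cells were labelled with Cy5 and compared on each array with a Cy3-labelled Universal Mouse Reference RNA, a mixture of 11 mouse cell lines. Cells came from wild type FVB/N-J mice, virgin or pregnant, and each condition gave P4 (CD24+CD29hi, labelled as enriched for MaSC, mammary stem cells), P5 (labelled as enriched for luminal progenitors, with the same CD24+CD29hi markers in its titles) and P6 (CD24lo, labelled as differentiated mammary epithelial cells), with 2 arrays per group. A further pair of arrays, 1 each, held Lin-/GFPhi cells (labelled MaSC-enriched) and Lin-/GFPlo cells (labelled MaSC-depleted) of virgin FVB/N-Luciferase transgenic L2G85 mice. The promoter behind the GFP signal, the day of pregnancy, the animals' ages and the number of animals per sample are not given in the sources used here. Whether the replicates of a group were separate animals is not stated, and the p-values below therefore reflect only how far these arrays scattered, a scatter that may be technical. In the comparison of stem-cell-enriched with depleted cells the scatter also holds the differences between the populations pooled there.

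Pleiotrophin and midkine act outside the cell, where they bind the sulfated sugar chains of proteoglycans. Binding of pleiotrophin to the chondroitin sulfate-bearing Ptprz1 lowers the activity of its phosphatase, and syndecan 3 presents the ligand through its heparan sulfate chains, best known in neurons. Both growth factors are prominent in embryonic tissues where epithelium and mesenchyme meet, and pleiotrophin has been studied as a regulator of ductal branching in the mammary gland.

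The probes that carry most of the results below are shown with their sequences, the ligand probes because they read matching stretches of the related transcripts. The files place the Ptn probe A_52_P10793 at chr6:36672972-36674918 on the minus strand of mm7 and the Mdk probe A_51_P453635 at chr2:91780364-91780574 on the minus strand. These spans are 1947 and 211 bases for probes of 60 bases, so neither probe is 1 contiguous stretch of the genome. The Ptprz1 probe A_51_P206405 lies at chr6:22992824-22992884 on the plus strand. Exons and untranslated regions of mm7 are not annotated here. Capitals mark the bases that Ptn and Mdk share when bases 4 to 60 of the Ptn probe are set, without gaps, against bases 1 to 57 of the Mdk probe.
Ptn A_52_P10793: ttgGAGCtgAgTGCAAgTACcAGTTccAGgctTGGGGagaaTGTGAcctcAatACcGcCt
Mdk A_51_P453635: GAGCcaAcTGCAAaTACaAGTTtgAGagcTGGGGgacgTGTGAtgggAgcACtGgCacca
Ptprz1 A_51_P206405: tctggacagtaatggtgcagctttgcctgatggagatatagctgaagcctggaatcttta
Over those 57 positions 34 bases were identical (59.6%). The other Mdk probe, A_51_P225665, lies at chr2:91780582-91780641, and the Sdc3 probe used most, A_52_P282741, at chr4:130040519-130040578.

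Values are log2 ratios of Cy5 over Cy3, so 0 means the same signal as the reference RNA and each unit is a doubling. The median Cy5 intensity of an array was 69.5 to 189, over a local background of 32 to 34.5. The Cy5 signal exceeded background clearly, by the scanner's flag, for 66.4% to 86.7% of the probes. Replicate arrays of a group correlated at 0.816 to 0.947 over the 23652 rows tested. The arrays came from 5 slides and 3 scans. Slide 1 held the virgin P4, P5 and P6 replicates 1, and slide 2 their replicates 2 with pregnant P4 replicate 2. Slide 3 held the pregnant replicates 1, slide 4 pregnant P5 and P6 replicates 2, and slide 5 both GFP arrays. Virgin and pregnant arrays of P5, and of P6, shared no slide, so slide and pregnancy cannot be told apart there. A fit with the slide as a block joins them only through the pregnant P4 arrays. Scan 1 held the virgin P4, P5 and P6 replicates 1 and both GFP arrays, scan 2 all replicates 2, and scan 3 the pregnant replicates 1. A gene was called where limma's moderated test, adjusted by Benjamini-Hochberg over all 23652 rows tested, gave an adjusted p under 0.05. A value in a population counts all its cells together, so fewer cells of a type and less RNA per cell cannot be told apart.

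Ptn had its highest level in virgin P5 and its lowest in pregnant P5. In virgin P5 the log2 ratios were 6.50 and 6.07, and in pregnant P5 they were -1.69 and -1.10. Virgin P4 gave 4.18 and 4.19, against 1.80 and 2.18 in pregnant P4. Virgin P6 gave 3.92 and 3.22, against 0.68 and -0.25 in pregnant P6. The GFPhi and GFPlo arrays, both of virgin mice, gave 4.94 and 4.17. All 8 virgin arrays were thus above all 6 pregnant arrays, and within each sorted population the virgin and pregnant arrays did not overlap. This separation is a description, and it includes the P5 arrays by which Ptn was chosen. With 2 arrays per group it also occurs without a call, and the share of all rows that separate in this way is not given here. The Mdk probe A_51_P225665 separated in each population too, not always in the same direction, and had no called effect in P4 or P6.

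**Figure D1:**
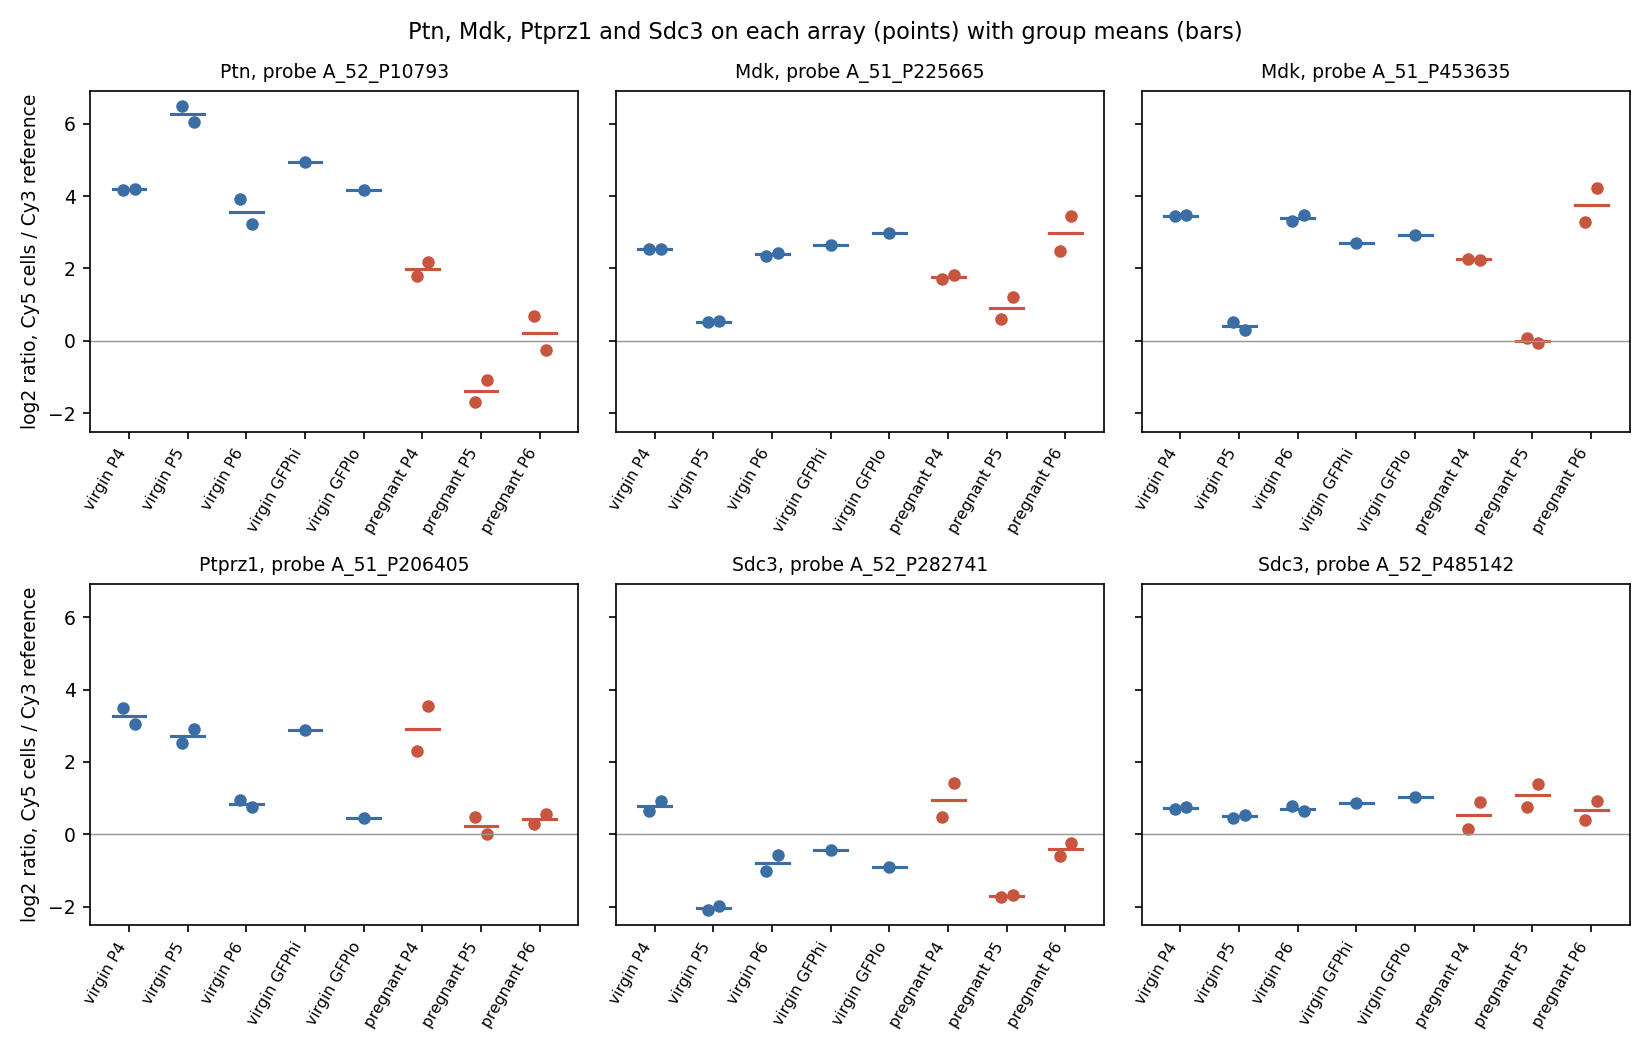
Log2 ratio of sorted cells over reference RNA (vertical axis) on each of the 14 arrays (points) in the 8 groups (horizontal axis). Panels show the Ptn probe, both Mdk probes, the Ptprz1 probe A_51_P206405 and the Sdc3 probes A_52_P282741 and A_52_P485142. Ptn is highest in virgin P5 and below 0 in pregnant P5, Mdk is low in both P5 groups, and Ptprz1 is highest in the P4 groups. Sdc3 is above 0 on the 4 P4 arrays only on A_52_P282741, and on all 14 arrays on A_52_P485142.

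In P4, a population that the choice of genes did not use, Ptn fell in pregnancy from 4.19 ± 0.01 to 1.99 ± 0.27 (SD, n = 2 each). The difference was -2.20 on the log2 scale, 4.59-fold lower (SE 0.363, adjusted p = 0.0169 by limma), in a comparison where 3.75% of rows were called. It was the 124th lowest difference of 23651 rows. Within scan 2, which holds 1 array of each condition, the difference was -2.01. The call was lost when scaling on each array's median replaced loess (-1.57, adjusted p = 0.451), with the slide as a block (-1.82, adjusted p = 0.0812), without scan 3 (-2.01, adjusted p = 0.0558), and when only the P4 arrays were fitted (adjusted p = 0.0535). It was also lost without virgin P4 replicate 1 (adjusted p = 0.107), virgin P4 replicate 2 (adjusted p = 0.118) or pregnant P4 replicate 1 (adjusted p = 0.0992), at values between -2.39 and -2.01.

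In P6, Ptn fell from 3.57 ± 0.50 to 0.21 ± 0.65 (SD, n = 2 each). This was a difference of -3.36, 10.3-fold lower (SE 0.363, adjusted p = 0.0144 by limma), where 0.186% of all rows, 44 of 23652, were called. Only 5 rows had a lower difference. Within scan 2 the difference was -3.47. The call was lost under the local backgrounds as given (-2.60, adjusted p = 0.207), median scaling (-3.15, adjusted p = 0.210), the slide as a block (-2.71, adjusted p = 0.257), without scan 3 (-3.82, adjusted p = 0.0698) and with only the P6 arrays (adjusted p = 0.583). Leaving out virgin P6 replicate 1 (adjusted p = 0.0805) or either virgin P4 array (adjusted p = 0.0531 for each) also lost it, at values between -3.82 and -2.90.

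The P5 difference that led to the choice of these genes was -7.68, or 205-fold, from 6.28 ± 0.30 to -1.40 ± 0.42 (SD, n = 2 each), the lowest of 23650 rows. The raw Cy5 intensities show the same direction, virgin above pregnant, in P4, P5 and P6 without any normalization. The arrays of scan 3, the pregnant replicates 1, were read without the scanner's extended dynamic range, unlike all others. Raw intensities of different scans may therefore not share 1 scale. The Cy5 signal of the Ptn probe was 100500 and 61880 in virgin P5 and 117 and 106 in pregnant P5, where it stayed well above background. It was 5908 and 6918 in virgin P4 against 2499 and 1493 in pregnant P4, and 4582 and 4089 in virgin P6 against 999 and 133 in pregnant P6. The pregnant P6 arrays thus differed from each other more in Cy5 intensity than in log2 ratio. The Cy3 signal, from the same reference RNA on every array, was 781 and 709 in virgin P5 and 216 to 414 on the other 12 arrays. Its part in the ratio was not tested, but the Cy5 channel alone gave -8.50 for the P5 difference.

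**Figure D2:**
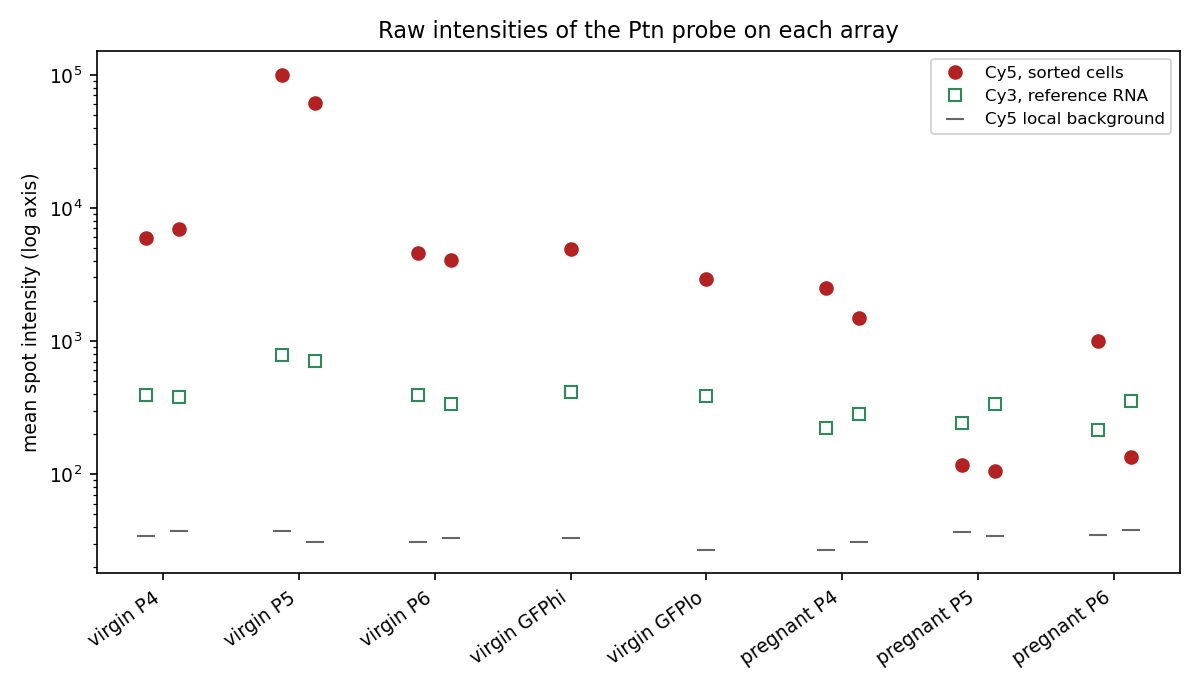
Mean spot intensity of the Ptn probe (vertical log axis) on each of the 14 arrays in the 8 groups (horizontal axis), for Cy5 (sorted cells, filled points), Cy3 (reference RNA, open squares) and the local Cy5 background (bars). Cy5 runs from 100500 in virgin P5 to 106 in pregnant P5, while Cy3 stays between 216 and 781.

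The falls of Ptn in P4 and P6 were not shown to differ. The P6 effect minus the P4 effect was -1.16 (SE 0.513, adjusted p = 0.668 by limma), in a comparison where 0.296% of rows were called. Between populations of virgin mice, P4 and P6 differed by 0.61 (SE 0.363, adjusted p = 0.458), where 10.3% of rows were called. In pregnant mice P4 was 1.77 above P6, 3.42-fold (SE 0.363, adjusted p = 0.0136), where 12.1% of rows were called. That difference was 1.12 in scan 3 and 2.43 in scan 2. Its call was lost with median scaling (2.09, adjusted p = 0.0879), the slide as a block (1.5, adjusted p = 0.0802), only the pregnant P4 and P6 arrays (adjusted p = 0.115), and without pregnant P4 replicate 2 (adjusted p = 0.0815) or pregnant P6 replicate 2 (adjusted p = 0.0693).

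From highest to lowest mean, the order of Ptn was virgin P5, GFPhi, virgin P4, GFPlo, virgin P6, pregnant P4, pregnant P6 and pregnant P5. Virgin P5 was 2.10 above virgin P4 and 2.71 above virgin P6. In pregnancy the place of P5 was reversed, at 3.38 below P4 and 1.61 below P6. These differences with P5 arrays share the arrays of the rule and carry no test. GFPhi was 0.77 above GFPlo, a ratio of 1.70 between 2 single arrays with no replicate check.

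Over the 14 arrays, the genes whose log2 ratios followed Ptn most closely among 6370 genes with a range of at least 2 were Hey1 (Pearson r = 0.958), Maoa (0.936), Lratd1 (0.933), Fbxw11 (0.931) and Tmem158 (0.930). These correlations describe arrays that share groups and a reference RNA. Hey1, a transcription factor known as a target of Notch signalling, was at 4.84 on both virgin P5 arrays and at -1.31 and -1.01 in pregnant P5. It reached 5.04 in GFPhi and 3.51 in GFPlo, and lay between 2.82 and 2.98 in virgin P4 and between 0.82 and 1.47 in pregnant P4. Tmem158 was at 3.88 to 5.61 in virgin P5 and at -1.59 to -1.34 in pregnant P5. Maoa, which degrades monoamines such as serotonin, moved over a smaller range, from 0.08 to 0.86 in virgin P5 to between -2.12 and -2.02 in pregnant P5.

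Markers of hormone-sensing luminal cells were lower in pregnancy beside Ptn in P4, P5 and P6, and general luminal markers in P5 and P6. The median of 8 such genes (Esr1, Pgr, Prlr, Areg, Foxa1, Ly6a, Cited1 and Prom1) was 3.58 to 4.21 in virgin P5 and 0.04 to 0.11 in pregnant P5. It was 0.81 to 1.20 in virgin P4 against -0.28 to 0.24 in pregnant P4, and 1.14 to 1.55 in virgin P6 against -0.02 to 0.23 in pregnant P6. In P5, 8 of the 8 were called lower in pregnancy, where 21.4% of all rows were called, but Pgr, Areg, Foxa1 and Prom1 were not well above background there, so their values are only bounds, and the median of pregnant P5 rests partly on them. In P4 3 of 8 were called lower, against 3.75% of all rows, and in P6 1 of 8, against 0.186%. Areg, the epidermal growth factor family ligand amphiregulin that estrogen induces in ducts, had mean log2 ratios of 5.88, 2.68 and 2.17 in virgin P5, P4 and P6 and was not well above background on any pregnant array, which leaves only a bound, so no size is given for its fall (adjusted p = 1.042e-05, 0.00107 and 0.00822 by limma). Cited1, a transcriptional coregulator that stayed well above background in every group, fell by 3.85 in P5 (adjusted p = 0.000451) and by 2.37 in P4 (adjusted p = 0.0202). In P6 its difference was -2.24 (adjusted p = 0.111). Of 8 general luminal genes 5 fell in P5 (list median -2.69), 0 in P4 by limma (median -0.43, 2 at an unadjusted p under 0.05), and 1 in P6 (median -1.52, 7 at an unadjusted p under 0.05). The luminal medians of the P4 arrays were 1.39 to 1.72 in virgin and 1.51 to 2.40 in pregnant mice. Alveolar and milk genes had positive list medians for pregnancy, 2.00 in P4, 1.57 in P5 and 2.26 in P6. Of those 6 genes, limma called 1 higher in P5 and 0 in P4 or P6. Fast skeletal muscle genes also moved in P5: the median of 6 was 3.0 to 3.11 in virgin P5 and 0.00 to 0.96 in pregnant P5, with 6 of 6 lower. In P4 that median was near 0 in both conditions, with 0 of 6 called by limma and 0 at an unadjusted p under 0.05. The part of these cell types in the Ptn values was not tested.

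**Figure D3:**
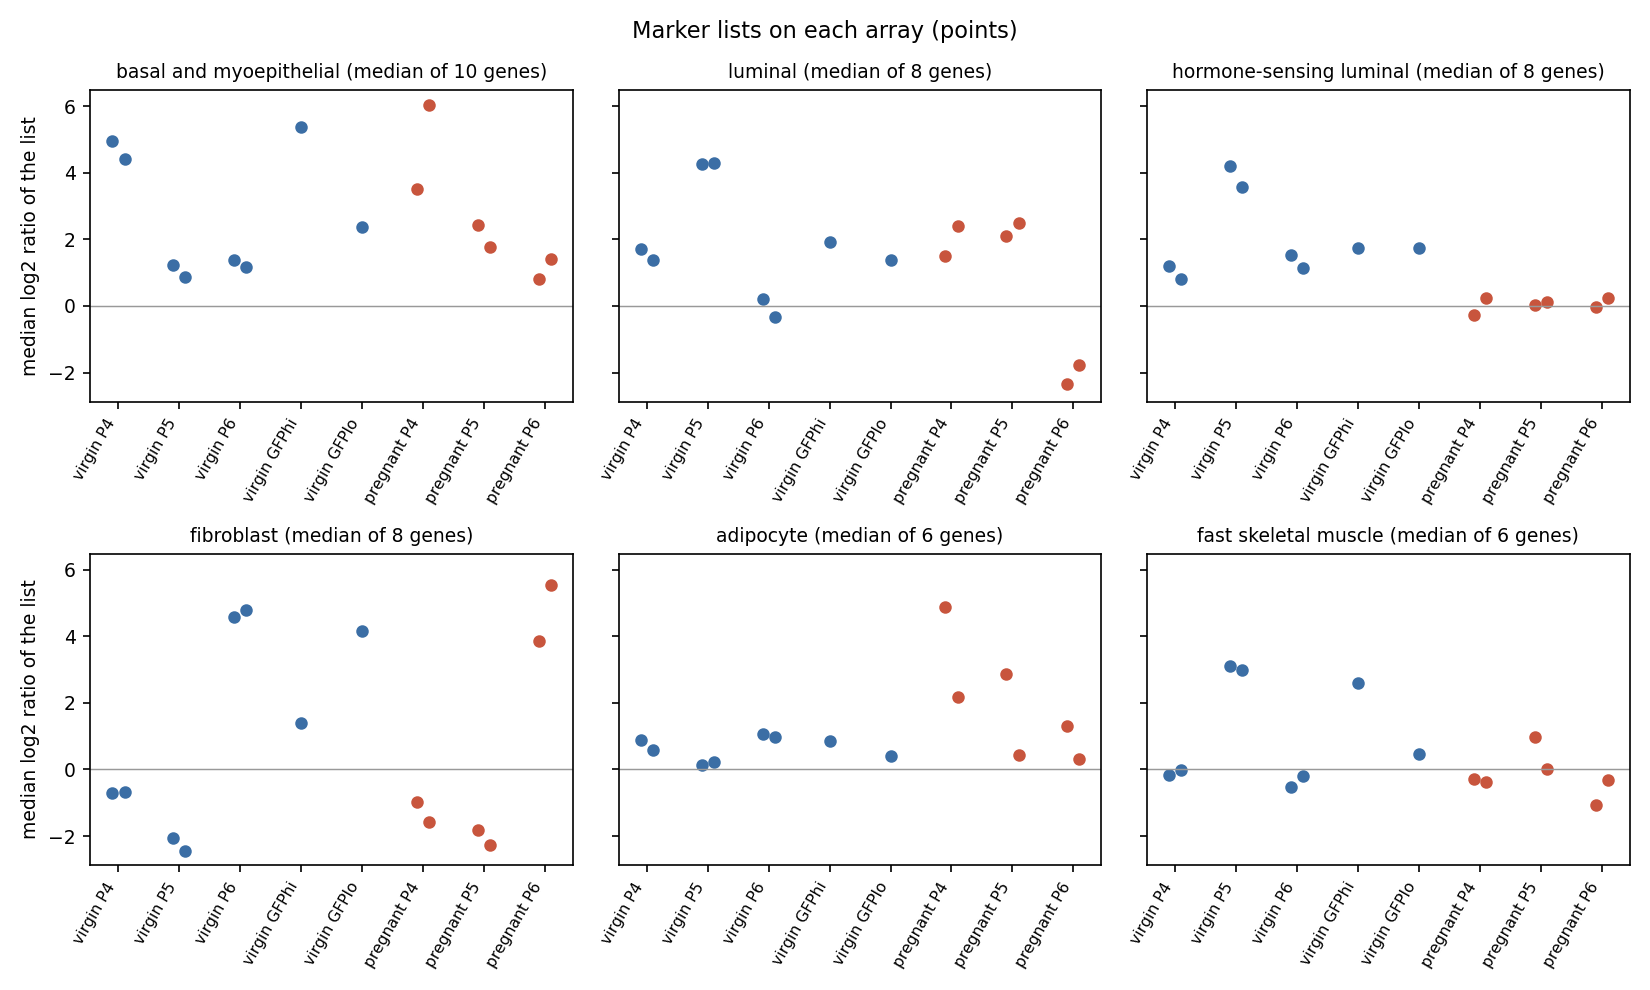
Median log2 ratio over reference RNA (vertical axis) of 6 marker lists on each of the 14 arrays (points) in the 8 groups (horizontal axis). The hormone-sensing luminal median falls from at least 3.58 in virgin P5 to at most 0.11 in pregnant P5, and the fibroblast median is at least 3.87 on the P6 and GFPlo arrays.

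The other marker lists check the labels of the populations. Basal and myoepithelial genes had medians of 3.52 to 6.05 in P4 and 5.37 in GFPhi, against 0.87 to 2.45 in P5. P4 also had endothelial medians of 3.77 to 3.85 in virgin and 3.11 to 4.79 in pregnant mice. Those of P5 were 1.25 to 1.81 and those of P6 1.20 to 3.06. Adipocyte medians were 0.59 to 0.88 in virgin P4 and 2.17 to 4.88 in pregnant P4. The part of such cells in the P4 values was not tested. Luminal genes were highest in P5, at 4.27 to 4.31 in virgin and 2.11 to 2.50 in pregnant mice. P6, labelled as differentiated epithelium, had luminal medians of -0.32 to 0.20 in virgin and -2.34 to -1.79 in pregnant mice, and fibroblast medians of 3.87 to 5.54. GFPlo had a fibroblast median of 4.16. Pericyte medians were 3.05 to 4.42 in P6 and at most 2.93 in P4. Schwann and glial medians (5 of 6 genes tested), for cells in which Ptn and Ptprz1 are well known, were at most 1.71 on any array, in GFPhi. They were 0.01 to 0.07 in virgin P5. The part of Schwann and glial cells in the Ptn and Ptprz1 values was not tested.

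Mdk, the midkine gene, was low in P5 and high in P4 and P6, in virgin and pregnant mice alike. On the brighter probe, A_51_P225665, virgin P4 gave 2.54 and 2.53, virgin P5 0.52 and 0.54, and virgin P6 2.35 and 2.43. Pregnant P4 gave 1.71 and 1.81, pregnant P5 0.61 and 1.22, and pregnant P6 2.49 and 3.46. GFPhi was at 2.64 and GFPlo at 2.99. The P5 arrays were the 4 lowest of the 14, and no array of another population came below 1.71.

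For Mdk on this probe, virgin P4 was 2.00 above virgin P5, 4.01-fold (SE 0.301, adjusted p = 0.00329 by limma), where 11.4% of rows were called. Virgin P5 was 1.86 below virgin P6 (difference -1.86, adjusted p = 0.00294), where 16.1% were called. Pregnant P5 was lower than pregnant P6 by 4.19-fold (difference -2.07, adjusted p = 0.0012), where 26.9% were called. These 3 calls held in every alternative tried and without any 1 array. Pregnant P4 lay below pregnant P6 (-1.22, adjusted p = 0.0315), a call that 7 of 12 omissions of 1 array ended, at values from -1.71 to -0.74. The lowest size, -0.74, came without pregnant P6 replicate 2 (adjusted p = 0.113), and the call was also lost without either pregnant P4 array or any 1 of the virgin P4 and P5 arrays. It was ended, too, by the scanner's own ratios, the local backgrounds as given, median scaling and fitting only the arrays compared. Pregnant P4 and pregnant P5 differed by 0.85 (adjusted p = 0.0797), where 22.6% of rows were called, and with the replicate number within a condition as a block the adjusted p was 0.00922. In all, 6 of 15 alternatives and 2 of 12 omissions of 1 array called it, at values up to 1.56. With that block 5169 to 10473 rows were called in the 6 comparisons between populations, against 2443 to 6371 without it.

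The Mdk probe A_51_P453635, the one whose sequence lines up with Ptn, also had its lowest values in both P5 groups, with wider gaps, and the probes correlated at 0.930 over the 14 arrays. The order of the other groups differed between the probes: A_51_P225665 was highest in GFPlo and A_51_P453635 in pregnant P6. Its values were 3.45 and 3.48 in virgin P4, 0.52 and 0.29 in virgin P5, and 3.31 and 3.49 in virgin P6. In pregnancy they were 2.25 and 2.25 in P4, 0.07 and -0.07 in P5, and 3.28 and 4.23 in P6. Virgin P4 was 8.33-fold above virgin P5 (difference 3.06, SE 0.266, adjusted p = 0.000206 by limma). Pregnant P5 was 13.5-fold below pregnant P6 (difference -3.76, adjusted p = 2.436e-05). Pregnant P4 was above pregnant P5 by 2.25 (adjusted p = 0.000634) and below pregnant P6 (difference -1.51, adjusted p = 0.00639). Of the 6 comparisons between populations on this probe 5 were called, and virgin P4 against virgin P6 was not (0.06, adjusted p = 0.977). With the local backgrounds as given, 3 of the 5 lost their call on this Mdk probe: virgin P5 minus P6 (-1.51, adjusted p = 0.212), pregnant P4 minus P6 (adjusted p = 0.240) and pregnant P4 minus P5 (adjusted p = 0.0588). Pregnant P4 minus P6 also lost it with median scaling (adjusted p = 0.109) and with only the arrays compared (adjusted p = 0.145).

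The pregnancy effects of Mdk were small beside those of Ptn. In P4 they were -0.78 (adjusted p = 0.249 by limma) on A_51_P225665 and -1.22, 2.32-fold (adjusted p = 0.0457), on A_51_P453635. The second was called in only 2 of the 12 fits that left out 1 array, with adjusted p up to 0.227. In P6 the differences were 0.59 (adjusted p = 0.769) and 0.36 (adjusted p = 0.888). The untested P5 differences were 0.38 and -0.41, of opposite sign on the probes, against -7.68 for Ptn. The P6 effect minus the P4 effect on A_51_P225665 was 1.36 (adjusted p = 0.365, and 0.0453 with the replicate block).

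**Figure D4:**
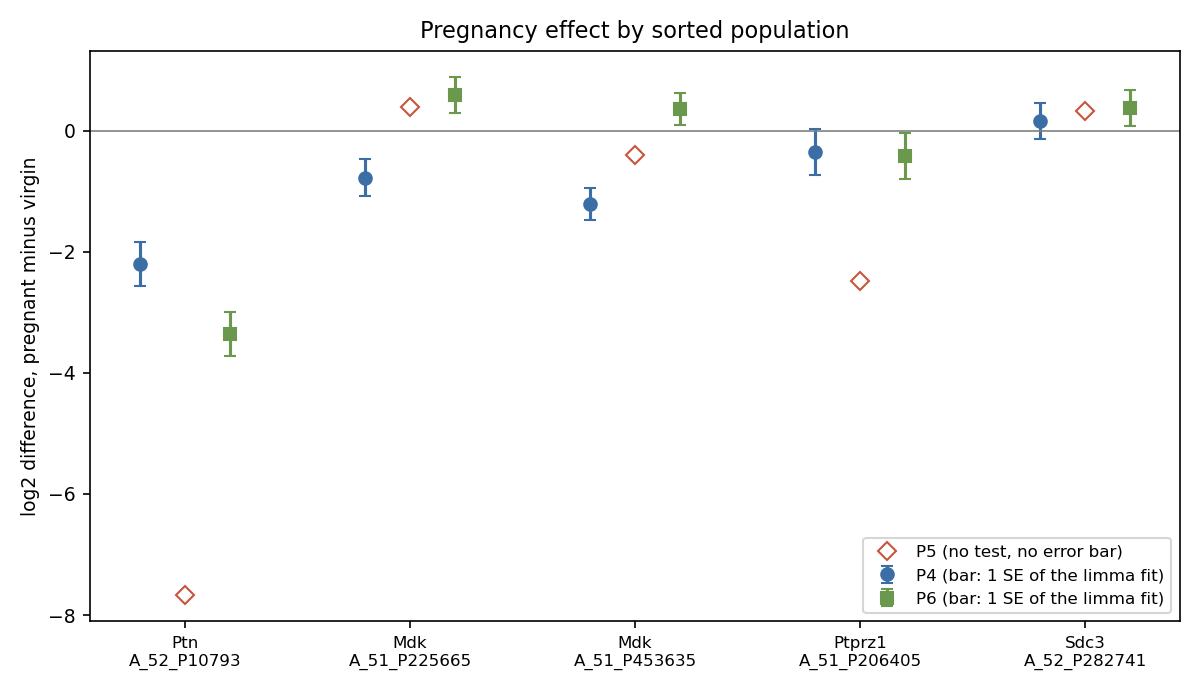
Pregnant minus virgin log2 ratio (vertical axis) for 5 probes of Ptn, Mdk, Ptprz1 and Sdc3 (horizontal axis) in P4, P5 and P6, with 1 standard error of the fit on 12 arrays as bars for P4 and P6. Ptn lies at -2.20, -7.68 and -3.36 in P4, P5 and P6, the Mdk probes between -1.22 and 0.59, and the P5 values carry no test.

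The genes most like Mdk across the arrays differed between its probes. For A_51_P225665 they were Mamdc2 (r = 0.963), Lrp12, Clip3, Gdf1 and Cpne2. For A_51_P453635 the named genes among the 5 were Vegfc (0.976), the ligand of the lymphatic receptor Vegfr-3, Cdk14 and the fibril-associated collagen Col14a1. Fibroblast markers, high in P6 where Mdk was high, were below 0 in P4, where Mdk was also high. Their part in the P6 level was not tested.

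Ptprz1, the receptor phosphatase, was highest in P4 and, in virgin mice, also in P5. On A_51_P206405 virgin P4 gave 3.49 and 3.05, virgin P5 2.53 and 2.92, and virgin P6 0.94 and 0.75. Pregnant P4 gave 2.29 and 3.54, pregnant P5 0.48 and -0.01, and pregnant P6 0.29 and 0.56. GFPhi was at 2.89 and GFPlo at 0.44, a ratio of 5.48 between single arrays. The P4, virgin P5 and GFPhi arrays lay at 2.29 or above, and every other array at 0.94 or below.

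Virgin P4 exceeded virgin P6 by 2.43, 5.37-fold (SE 0.381, adjusted p = 0.00403 by limma). Virgin P5 exceeded virgin P6 by 1.87 (adjusted p = 0.00978). Virgin P4 and virgin P5 differed by 0.55 (SE 0.381, adjusted p = 0.534). In pregnancy P4 exceeded P6 by 2.49 (adjusted p = 0.00305) and P5 by 2.68, 6.41-fold (adjusted p = 0.00147), while P5 and P6 differed by -0.19 (adjusted p = 0.778). The first 3 of those calls were lost with the scanner's own ratios (adjusted p = 0.0852, 0.096 and 0.06), and all 4 were lost with the mean of the gene's probes. That of pregnant P4 over P6 was also lost with only the arrays compared (adjusted p = 0.09). The call of virgin P5 over virgin P6 was lost without virgin P5 replicate 2 (adjusted p = 0.076) or virgin P6 replicate 2 (adjusted p = 0.0619).

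Pregnancy effects of Ptprz1 were -0.36 in P4 (adjusted p = 0.748 by limma) and -0.42 in P6 (adjusted p = 0.913). In P5 the untested difference was -2.49, 5.60-fold lower, the same direction as Ptn in those arrays. The sign in P4 turned with median scaling, with the slide as a block, without scan 3 and in the Cy5 channel alone, and that in P6 with the backgrounds as given, with the mean of the probes and with the slide as a fixed or random block. Over the alternatives other than omissions of 1 array the P5 difference ran from -3.74 to -0.53. Cy3 was well above background on 11 of 14 arrays for this probe, with intensities of 36.0 to 49.9. Its Cy5 intensities were 52.9 and 90.4 in pregnant P5, 64.0 and 116 in pregnant P6 and 63.1 in GFPlo. With signals this low, the sizes and folds of differences with those groups may be bounds. Most alike across arrays were Ntng1 (r = 0.954), a netrin-like adhesion protein of axons, Fermt1 (0.953), the kindlin of epithelial cells that activates integrins, Kifc3, Plch2 and Gcnt2.

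The other Ptprz1 probes did not give this pattern. A_51_P370996, at chr6:22945214-22945273, ranged from 1.63 to 4.78 over the arrays, correlated at 0.534 with A_51_P206405 and had no call in any comparison. A_52_P527944, at chr6:22942347-22942406, was the brightest probe of the array in Cy3 and was saturated in Cy5 on 4 arrays, and it had no call either. A_52_P332486 was not well above background in Cy5 on any array. The results for Ptprz1 therefore rest on 1 of 3 measured probes, and it was taken with its values known.

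Sdc3 was highest in P4 and lowest in P5 on 1 of its probes, A_52_P282741, in virgin and pregnant mice alike, and not on the brighter probe. On A_52_P282741 virgin P4 gave 0.64 and 0.92, virgin P5 -2.08 and -1.99, and virgin P6 -1.02 and -0.57. Pregnant P4 gave 0.47 and 1.41, pregnant P5 -1.74 and -1.69, and pregnant P6 -0.61 and -0.23. GFPhi was at -0.44 and GFPlo at -0.91. The 4 P4 arrays were the only ones above 0, and the 4 P5 arrays were the 4 lowest.

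Virgin P4 exceeded virgin P5 by 2.82, 7.06-fold (SE 0.30, adjusted p = 0.000568 by limma), and pregnant P4 exceeded pregnant P5 by 2.66, 6.32-fold (adjusted p = 0.000504). On this probe both Sdc3 calls held in every alternative tried, but with the mean of the gene's probes the differences were 0.98 and 0.73. Leaving out 1 array gave 2.68 to 2.96 and 2.19 to 3.13. No alternative took the brighter probe A_52_P485142 alone. That probe had no call, at 0.23 in virgin (adjusted p = 0.820 by limma) and -0.55 in pregnant mice (adjusted p = 0.226). P4 exceeded P6 by 1.57 in virgin (adjusted p = 0.0112) and 1.36 in pregnant mice (adjusted p = 0.0192). P5 lay below P6 in virgin (-1.25, adjusted p = 0.0223) and pregnant mice (-1.30, adjusted p = 0.0128). These 4 calls with P6 were lost with median scaling (adjusted p from 0.058 to 0.370) and with the mean of the gene's probes. Leaving out 1 array also ended them: virgin P4 replicate 2 or virgin P6 replicate 1 for virgin P4 over P6, either virgin P5 array or virgin P6 replicate 2 for virgin P5 under P6, pregnant P4 replicate 2 or pregnant P6 replicate 1 for pregnant P4 over P6, and either pregnant P5 array or pregnant P6 replicate 2 for pregnant P5 under P6 (adjusted p from 0.0557 to 0.140). Without pregnant P4 replicate 2 the difference between pregnant P4 and P6 was 0.89. Pregnancy effects were 0.16 in P4 (adjusted p = 0.873) and 0.37 in P6 (adjusted p = 0.903), with an untested 0.32 in P5.

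The Sdc3 probes disagreed as well. A_52_P485142, the brighter one, lay between 0.15 and 1.39 on all 14 arrays with no call. Its group order was another one: pregnant P5 had the highest mean (1.08), and pregnant P4 (0.52) lay 0.55 below it (difference -0.55, adjusted p = 0.226 by limma). A_51_P347494 was well above background in Cy5 on 2 arrays only. On A_52_P282741 the closest genes were Vwa1 (r = 0.981), an extracellular matrix protein of the pericellular matrix, Kcnip3 (0.967), Bok, Inka1 and Pdlim7.

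Stem-cell-enriched cells (P4, with GFPhi in virgin mice) were also compared with depleted cells (P5 and P6, with GFPlo in virgin mice), as the study's design sets out. This fit gave the pooled populations 1 mean, so its spread includes the differences between them. For Mdk on A_51_P225665 the SD of virgin depleted cells was 1.15 (n = 5). It was 0.02 within virgin P5 and 0.06 within virgin P6 (n = 2 each). No probe of Mdk, Ptprz1 or Sdc3 was called by limma (0 of 8, with 2 at an unadjusted p under 0.05 in each condition), where 1.62% of rows were called in virgin and 2.49% in pregnant mice. Ptprz1 on A_51_P206405 was 1.63 higher in the enriched cells of virgin mice (adjusted p = 0.267 by limma) and 2.58 higher in those of pregnant mice (adjusted p = 0.0587). The latter was called in 2 of 14 alternatives, median scaling (adjusted p = 0.0393) and the Cy5 channel alone (adjusted p = 0.0195), and in 2 of 14 omissions of 1 array. Sdc3 on A_52_P282741 was 1.69 (adjusted p = 0.158) and 2.01 higher (adjusted p = 0.116), the second called in Cy5 alone (adjusted p = 0.0382). Ptn differed by -0.34 in virgin and 2.58 in pregnant mice. It was not tested here, because the depleted group includes the P5 arrays by which Ptn was chosen.

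Other genes of the pathway were taken from 4 lists. The first holds 15 further binding partners of the ligands: the other syndecans, the receptor tyrosine kinase Alk, integrins, Lrp1, Notch2, nucleolin and others. Of the 15, 0 were called by limma for pregnancy in P4 or P6, with 3 and 1 at an unadjusted p under 0.05 (median difference 0.11 and 0.08, against -0.03 and -0.01 over all rows). In P5, 2 of 15 rose and 2 fell (median 0.39 against 0.04 over all rows), a share near the 21.4% of all rows called. Alk fell by 1.64, or 3.12-fold (adjusted p = 0.000179 by limma), and Notch2 fell by 1.61 (adjusted p = 0.0086), a call kept in 21 of 26 alternatives, with -0.07 for the mean of the gene's probes. Itga6, the laminin-binding integrin alpha 6, rose by 1.28 (adjusted p = 0.0457) and syndecan 2 (Sdc2) by 0.80 (adjusted p = 0.0248). Those calls were kept in 9 and 18 of 26 alternatives (omissions of 1 array included), at values from 0.64 to 1.54 and from 0.17 to 1.24. The number called in P5 ran from 1 to 6 over all alternatives.

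Alk, a receptor reported to bind both growth factors, had a narrow distribution. It was at 1.77 to 1.89 in virgin P5, where Ptn was highest, with Cy5 intensities of 293 to 323. On every other array it lay between -0.06 and 0.37. Alk did not pass an alternative filter that also asked for Cy3 well above background on every array. Such low ratios can then be low signal in both channels, so the sizes of its differences, the fall in P5 included, may be bounds. Virgin P5 exceeded virgin P4 by 1.62 (difference of P4 minus P5 -1.62, adjusted p = 0.000228 by limma) and virgin P6 by 1.71 (adjusted p = 7.806e-05). The Alk call in P5 pregnancy held in 25 of 25 alternatives, at values from -2.89 to -1.01.

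Between populations, 6 of 15 partners differed between virgin P4 and virgin P6, 3 between virgin P4 and P5, and 6 between virgin P5 and P6, where 10.3%, 11.4% and 16.1% of all rows were called. In pregnancy the counts were 5, 6 and 7, against 12.1%, 22.6% and 26.9% of all rows. Itga6 was 33.1-fold higher in virgin P4 than in virgin P6 (difference 5.05, adjusted p = 9.477e-05 by limma) and 52.9-fold higher in pregnancy (5.72, adjusted p = 4.085e-05). Itga6 forms with integrin beta 1 a basement membrane receptor used to sort basal cells. Lrp1, an endocytic receptor that takes up midkine and pleiotrophin, was lowest in P5, 22.4-fold below P6 in virgin (difference -4.49, adjusted p = 1.612e-05) and 28.9-fold below it in pregnant mice (-4.85, adjusted p = 9.852e-06). As for Mdk, both P5 groups were the lowest.

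**Figure D5:**
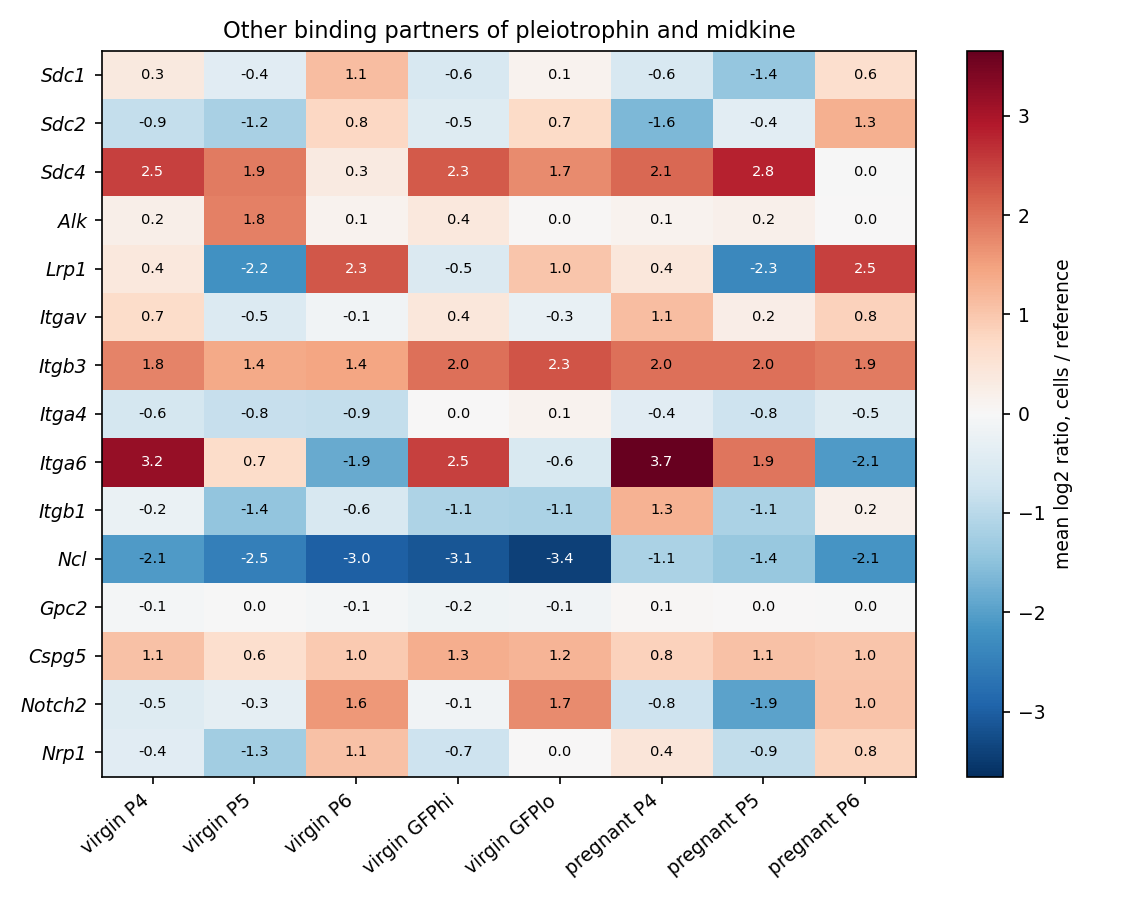
Mean log2 ratio over reference RNA (colour and printed value) of the other binding partners of pleiotrophin and midkine (rows) in each of the 8 groups (columns, with 2 arrays per group and 1 for each GFP group). Itga6 is above 0 in P4 and below 0 in P6, Lrp1 is lowest in P5, and Alk is near 0 outside virgin P5.

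The second list holds 13 known partners and substrates of Ptprz1, of which 12 were tested. In P5 4 rose and 1 fell in pregnancy (median 0.24), where 21.4% of all rows were called. Add2, a beta adducin that caps actin filaments, rose 20.5-fold (difference 4.36, adjusted p = 7e-05 by limma), from -1.33 to -1.24 in virgin P5 to 2.51 to 3.65 in pregnant P5. Tnc, the matrix protein tenascin C, rose 8.84-fold (3.14, adjusted p = 0.000925), from -2.15 to -1.89 to 0.50 to 1.75. The adhesion molecule Ncam1 rose by 1.03 in P5 and by 1.41 in P4 (adjusted p = 0.00905), where it was the only 1 of 12 called, against 3.75% of all rows. The P4 call was kept in 20 of 26 alternatives, at values down to 0.33. The scaffold Magi1 fell by 1.09 in P5, a call kept in 18 of 26. In P6, where 0.186% of all rows were called, Cntn1 alone fell, by 1.77 (adjusted p = 0.0496), a call kept in 4 of 25 alternatives.

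The enzymes that build and edit heparan sulfate, the chains that syndecans carry, formed a list of 20. In P4 2 of 20 fell in pregnancy, where 3.75% of all rows were called: the 6-O-sulfotransferase Hs6st2 by 2.36, or 5.12-fold (adjusted p = 0.0222 by limma), and the 6-O-endosulfatase Sulf1 by 1.60 (adjusted p = 0.0311). These calls were kept in 17 and 11 of 26 alternatives. In P6 0 of 20 were called, with 1 at an unadjusted p under 0.05. In P5 3 rose and 1 fell, a share no larger than the 21.4% of all rows called. Hs6st2, which fell in P4, rose there by 2.03 (adjusted p = 0.0105), from -2.78 to -2.14 in virgin to -0.72 to -0.14 in pregnant mice. Ext1, a polymerase of the chain, rose by 2.24 and Hs6st1 by 1.26, and the 3-O-sulfotransferase Hs3st1 fell by 2.41. Hs6st2 was also the only 1 of the 20 called between enriched and depleted cells of virgin mice, where 1.62% of all rows were called (8.85-fold higher, adjusted p = 0.00401). Sulf1 was 16.5-fold lower in virgin P5 than in virgin P6 (difference -4.04, adjusted p = 4.914e-05) and 24.0-fold lower in pregnancy (-4.58, adjusted p = 2.011e-05).

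The chains that Ptprz1 carries are built by the 16 genes of a list of chondroitin sulfate synthesis, of which most were lower in P5 than in P6. Virgin P5 was below virgin P6 for 12 of 16 and above it for 0 (median -1.84 against 0.00 over all rows), where 16.1% of all rows were called. Pregnant P5 was below pregnant P6 for 10 and above it for 1 (median -1.83), where 26.9% were called. P4 lay between: 6 of 16 were lower in virgin P4 than in virgin P6 and 6 in pregnant P4 than in pregnant P6, where 10.3% and 12.1% of all rows were called, and 6 were higher in virgin P4 than in virgin P5, where 11.4% were. Dsel, an epimerase that makes dermatan sulfate, was 16.6-fold lower in virgin P5 than in virgin P6 (-4.05, adjusted p = 4.82e-05 by limma) and 26.6-fold lower in pregnancy (-4.73, adjusted p = 1.755e-05). The sulfotransferase Ust was 21.2-fold lower in virgin P5 (-4.41, adjusted p = 4.346e-05). The count in virgin P5 against P6 ran from 6 to 14 over the alternatives. P6 also had fibroblast medians of at least 3.87, against at most -1.81 in P5, and the part of those cells was not tested. In pregnancy 0 of 16 were called by limma in P4 or P6, with 3 and 5 at an unadjusted p under 0.05, and 2, no more than the background share, rose in P5, Chst11 by 1.40 and Chst3 by 0.98.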

How the data were processed

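Each array was read with Agilent Feature Extraction 9.5.3.1, per the submitters' processing notes. Per the file headers, the deposited intensity columns hold the spot mean and the local background of each channel, and the deposited log10 ratio is Cy5 over Cy3 after the scanner software's own background and dye correction. The deposited log2 series table held the same ratios (r from 0.990 to 1 against the scanner values, medians -0.02 to 0.10). Its centring is not given in the sources used here.

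From the intensities, the array's median took the place of local backgrounds that the scanner marked as non-uniform outliers (7 to 381 in a channel), followed by limma 3.58.1 in R 4.3.3: normexp with an offset of 50, then loess within each array. Control spots carried no weight, and 77 to 193 outlier spots per array were left out. A probe was tested if 1 or more of the 6 replicated groups had it flagged well above background in Cy5 on both arrays (34805 of 41174). The brightest probe stood for a gene, and every member probe that passed (9 of 10) kept its own row, giving 23652 rows over 23647 genes. The 6 groups were fitted on 12 arrays, and enriched against depleted cells on 14. The number of arrays limits the precision. The fit was tested on simulated data.

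Members and lists were chosen with earlier results of these data known. Pathway genes named are up to 4 called genes per list and comparison with the largest difference, and the genes most alike are the 5 with the highest correlation. Symbols came from RefSeq by accession for 22951 probes, symbol for 6659 and synonym for 3109, and from the file for 8455. Arrays of the same replicate number deviated together within a condition (correlations of deviations 0.304 to 0.688) but not across conditions (-0.208 to 0.146). Within a condition the replicate number coincides with the scan, so a pairing of replicates and a scan effect cannot be told apart. The block by replicate number is thus also a block by scan within a condition. Alternatives are given in the closing section.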

Additional observations from a re-analysis of the deposited data

Results flagged for a closer look

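On the Mdk probe A_51_P225665, the arrays of P4 and P6 were separated by pregnancy in opposite directions, although neither difference passed the test. The share of all rows that separate in this way is not given here. Both pregnant P4 arrays lay below both virgin P4 arrays (effect -0.78, adjusted p = 0.249 by limma), and both pregnant P6 arrays lay above both virgin P6 arrays (effect 0.59, adjusted p = 0.769). The difference between these effects was 1.36, with an adjusted p of 0.365 by limma and of 0.0453 with the replicate number within a condition as a block.

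The same probe gave effects of opposite sign in P4 and P5 as well. The P5 effect was 0.38, with both pregnant arrays above both virgin arrays, and it differed from the P4 effect by 1.16. That difference was not tested, because the P5 contrast led to the choice of the genes. The second Mdk probe gave -0.41 in P5.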

How the results depend on the processing

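The 60 results on the members come from the 5 probes Ptn A_52_P10793, Mdk A_51_P225665 and A_51_P453635, Ptprz1 A_51_P206405 and Sdc3 A_52_P282741. The other Ptprz1 and Sdc3 probes are not in these counts. The 60 results gave 873 values under alternatives that changed 1 choice. Of these, 754 kept their direction and side of the threshold, 52 lost a call, 12 gained one and 23 changed sign. The untested ones moved beyond 1 SD in 32. Leaving out 1 array gave 740 values, of which 683 kept both, 37 lost a call, 5 gained one and 15 changed sign. The 113 results on named pathway genes gave 1672 values, with 162 calls lost and 1 change of sign, Sulf1 in virgin P4 minus virgin P6 (0.067 under the backgrounds as given). The causes were not tested. The Cy5 channel alone and the slide as a random block were chosen after seeing the data.

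For Ptn, the pregnancy effect in P4 lost its call at -1.57 (median scaling), -1.82 (slide as a block), -2.01 (without scan 3) and -2.20 (only the arrays compared), and leaving out 1 array gave -2.39 to -2.01. In P6 it did so at -2.60 (backgrounds as given), -3.15 (median scaling), -2.71 (slide block), -3.82 (without scan 3) and -3.36 (only the arrays compared), with -3.82 to -2.90 over single omissions. The P5 value moved to -8.39 with the scanner's ratios and with the series table, -7.03 with the slide block and -8.50 in Cy5 alone, with -7.97 to -7.38 over omissions. Pregnant P4 minus P6 lost its call at 2.09 (median scaling), 1.5 (slide block) and 1.77 (only the arrays compared), with 1.31 to 2.24 over omissions. Virgin P4 minus P6 ran from 0.26 to 0.96 over omissions and the P6 effect minus the P4 effect from -1.62 to -0.70, with no call. The untested virgin enriched minus depleted value turned to 0.090 without virgin P5 replicate 1, with -0.73 as its lowest value over omissions.

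For Mdk on A_51_P225665, pregnant P4 minus P6 lost its call at -1.30 (scanner ratios and series table), -1.22 (backgrounds as given, and only the arrays compared) and -0.73 (median scaling), with -1.71 to -0.74 over omissions. Omissions gave 1.99 to 2.02 for virgin P4 minus P5, -1.90 to -1.82 for virgin P5 minus P6 and -2.55 to -1.58 for pregnant P5 minus P6. The P5 effect turned to -0.17 (median scaling) and -0.012 (mean of the probes), and pregnant enriched minus depleted to 0.42 (median scaling), 0.091 (mean of the probes), 0.16 (slide block) and 0.32 (without pregnant P6 replicate 2, with -0.63 as the other end over omissions). On A_51_P453635 omissions gave -0.12 to 0.83 for the P6 effect (below 0 without pregnant P6 replicate 2), -0.027 to 0.15 for virgin P4 minus P6 (below 0 without virgin P6 replicate 1) and -0.28 to 1.15 for pregnant enriched minus depleted (-0.23 and -0.28 without pregnant P5 replicate 1 or 2).

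For Ptprz1 on A_51_P206405, calls were lost with the scanner's ratios and the series table in virgin P4 minus P6 (2.43), virgin P5 minus P6 (2.12) and pregnant P4 minus P6 (2.54). With the mean of the probes they were lost at 1.45, 0.95 and 1.10 and, for pregnant P4 minus P5, at 0.82. Pregnant P4 minus P6 also lost its call with only the arrays compared (2.49). Omissions gave 2.21 to 2.64, 1.68 to 2.07, 1.86 to 3.11 and 2.06 to 3.30 for these 4. Signs turned for the P4 effect at 0.083 (median scaling), 0.31 (slide block), 0.27 (without scan 3 or without pregnant P4 replicate 1) and 0.0021 (Cy5 alone), with -0.98 as its lowest value over omissions. For the P6 effect they turned at 0.16 (backgrounds as given), 0.13 (mean of the probes), 0.92 (slide block) and 0.033 (slide as a random block). The difference of the effects turned at 0.52, 0.35, 0.62 and 0.16 under these 4, and at 0.16, 0.030, 0.56 and 0.071, with -0.69 as the lowest over omissions, without virgin P4 replicate 2, virgin P6 replicate 1, pregnant P4 replicate 2 or pregnant P6 replicate 1. Pregnant P5 minus P6 turned at 0.29 (mean of the probes) and 0.052 (without pregnant P5 replicate 2), with -0.44 as its lowest over omissions.

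For Sdc3 on A_52_P282741, median scaling ended the call of virgin P4 minus P6 (1.47), virgin P5 minus P6 (-0.92), pregnant P4 minus P6 (1.76) and pregnant P5 minus P6 (-1.30), as did the mean of the probes (0.48, -0.50, 0.45 and -0.28). The backgrounds as given ended those of virgin P4 minus P6 (1.20) and pregnant P5 minus P6 (-0.92), and only the arrays compared that of pregnant P4 minus P6 (1.36). Omissions gave 1.35 to 1.80, -1.47 to -1.02, 0.89 to 1.83 and -1.48 to -1.11 for these 4, 2.68 to 2.96 for virgin P4 minus P5 and 2.19 to 3.13 for pregnant P4 minus P5. Signs turned for the P4 effect at -0.31 (without pregnant P4 replicate 2, up to 0.63 over omissions), for the P6 effect at -0.0048 (backgrounds as given), and for their difference at -0.16 (backgrounds as given), -0.29 (median scaling), -0.072 (without scan 3), -0.12 (Cy5 alone), -0.016 (without virgin P6 replicate 1) and -0.26 (without pregnant P4 replicate 1, up to 0.68 over omissions).

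With the replicate number within a condition as a block, Ptn in pregnant P4 minus P6 kept its value of 1.77 (adjusted p = 0.00797 by limma). The block added calls for Mdk on A_51_P225665 in pregnant P4 minus P5 (0.85, adjusted p = 0.00922) and in the P6 effect minus the P4 effect (1.36, adjusted p = 0.0453). It changed no other call that the text reports for the member probes put through the alternatives. It raised the rows called in virgin P4 minus P6 from 2443 to 5169 and in the P6 effect minus the P4 effect from 70 to 662. Pregnancy effects lie between such blocks, so no blocked fit was made for them. Over the alternatives other than omissions of 1 array, the rows called for pregnancy ran from 0 to 2045 in P4 (888), 0 to 142 in P6 (44) and 2421 to 8392 in P5 (5054). The counts of 0 came from limma on only the 4 arrays compared, where 3851 and 1041 rows had an unadjusted p under 0.05. Median scaling moved the median P4 effect of all rows to 0.15 from -0.03, and the scanner's ratios that in P5 to 0.11 from 0.04. Only 2 arrays per group, and low Cy5 signal of Ptn in pregnant P5, limit the precision.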
